A study of Rattus norvegicus with 21 samples.

Results

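The genes described are the pair of corticosteroid receptors of the brain and a kinase that responds to them, 3 of the 30560 Ensembl rat gene IDs in the table. They were taken by ID, with names given in the rule that listed them: ENSRNOG00000014096 as Nr3c1, ENSRNOG00000034007 as Nr3c2 and ENSRNOG00000011815 as Sgk1. All 3 were present and had reads in every library. Neither the table nor the reference annotation pairs an ID with a name, so these names were not checked against the data.

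The samples were cerebral cortex and hippocampus of male wild-type SD rats, 4 weeks old at arrival and given 2 weeks to settle. Exposed rats went through 6 cycles of hypobaric hypoxia, the thin air of high altitude in a decompression chamber, at 3-day intervals with 5 min at a simulated 28000 ft each. Brains were collected 24 h or 48 h past the final cycle, while the controls breathed normal air. Hippocampus had 3 libraries at 24 h, 3 at 48 h and 4 of controls, and cortex had the same numbers. A further library, whose title and tissue label disagree, was left out. At 1 library per rat and tissue, the 4 control rats and the 3 rats at 48 h gave both tissues. The labels do not say whether a replicate number stands for the same rat in both tissues, and each piece of tissue mixes all its cell types. Of 12 rats 8 were exposed and 1 of these died, so the exposed rats were those that survived.

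Nr3c1 encodes the glucocorticoid receptor and Nr3c2 the mineralocorticoid receptor. Both are nuclear receptors that bind the stress hormone corticosterone in rat brain, and the mineralocorticoid receptor binds it with the higher affinity. Nr3c2 is known for strong expression in hippocampal neurons, whereas Nr3c1 is found in most brain cells. Sgk1 encodes serum- and glucocorticoid-regulated kinase, a protein kinase whose transcription is induced by activated corticosteroid receptors and by other stimuli, and which regulates ion channels and transporters.

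Levels are given as normalised read counts, which are reads divided by the size factor of the library. They can be compared between libraries for 1 gene, and not between genes, because they are not divided by gene length. Libraries held 11214566 to 19304803 reads in genes, except hippocampus control 1 with 4654096. On a scale set by genes at least 4-fold apart between the tissues, with 0 for cortex and 1 for hippocampus, 3 libraries lay far inside. These were hippocampus control 2 at 0.30, hippocampus 24 h replicate 2 at 0.46 and cortex control 3 at 0.41. Cortex 24 h replicate 3 lay at 0.26. These 4 and hippocampus control 1 are called doubted here, a choice that goes back to earlier processing of the same data, and results that rest on them are also given without them. The other hippocampus libraries lay between 0.85 and 1.24, and the other cortex libraries between -0.10 and 0.11. Known marker genes of either tissue could not be looked up for want of names.

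No change of these 3 genes after exposure passed the test in either tissue. Of 18 tests (3 genes, 24 h against control, 48 h against control and 48 h against 24 h, in 2 tissues), limma called 0 at an adjusted p under 0.05, and 0 had an unadjusted p under 0.05. In each of these 6 comparisons 0% of all genes were called. edgeR and DESeq2 also called 0 of the 18, and each gave 1 unadjusted p under 0.05, for Sgk1 in cortex at 24 h. The 95% interval of the change lay within 2-fold in either direction in 7 of the 18 tests, in 4 of 6 for Nr3c1, 2 of 6 for Nr3c2 and 1 of 6 for Sgk1. The other 11 intervals reach past 2-fold, so they do not exclude a change of that size.

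**Figure D1:**
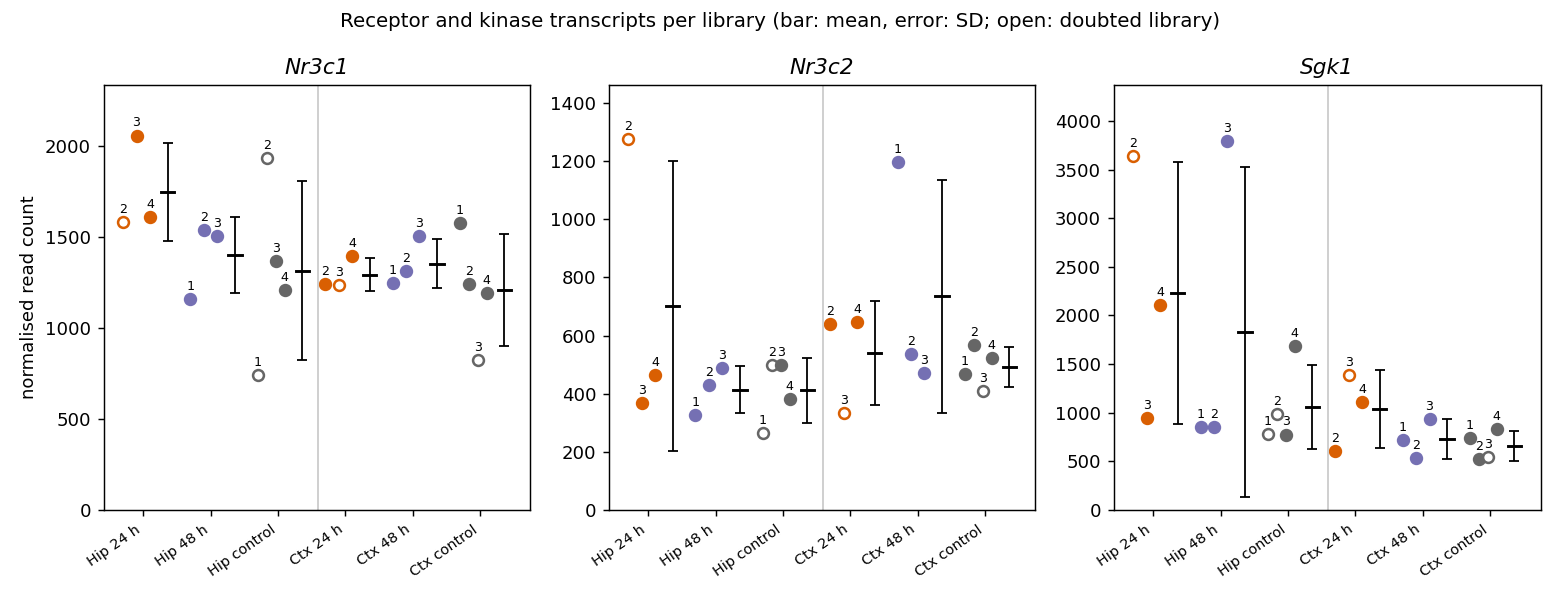
Normalised read count (y axis, from 0) of Nr3c1, Nr3c2 and Sgk1 in each library, by tissue (Hip, hippocampus; Ctx, cortex) and group. Points are libraries with their replicate number, open points are the 5 doubted libraries, and bars and error bars are the mean and SD of 3 or 4 libraries. Sgk1 reached 3637 and 3790.1 in 2 hippocampus libraries, against at most 1391 in cortex.

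Nr3c1, the glucocorticoid receptor, was the steadiest of the 3, with group means from 1207 in control cortex to 1746 in hippocampus at 24 h. In hippocampus its normalised count was 1578, 2055 and 1605 in replicates 2, 3 and 4 at 24 h. It was 1157, 1537 and 1505 in replicates 1, 2 and 3 at 48 h, against 742, 1933, 1365 and 1206 in controls 1 to 4. The control libraries thus spanned the values of all exposed ones but replicate 3 at 24 h, with the shallow control 1 lowest and control 2, which lay between the tissues, highest. Hippocampus at 24 h had a mean of 1746 ± 268 (SD, n = 3), against 1312 ± 491 (SD, n = 4) for control hippocampus. The log2 change was 0.48 (95% interval -0.19 to 1.16, limma adjusted p = 0.851). At 48 h it averaged 1399 ± 211 (SD, n = 3), a log2 change against controls of 0.16 (95% interval -0.51 to 0.84, limma adjusted p = 0.933). Without hippocampus control 1 the 48 h value was -0.084, and without all doubted libraries it was 0.11.

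All 3 hippocampus libraries at 48 h lay below all 3 at 24 h for Nr3c1. The log2 difference of 48 h minus 24 h was -0.32 (95% interval -1.04 to 0.40, limma adjusted p = 1, exact permutation p = 0.1, the smallest that 3 against 3 can give). Of the 3 genes only Nr3c1 had no overlap here, as had 3.97% of the 15028 genes tested. Over the 3 genes 27 pairs of groups were looked at, and 2 had no overlap. Both are 3 against 3, where random labels give no overlap with a probability of 0.1, so they are not read as a result. In bulk tissue, a lower level from fewer cells of a type and one from less RNA per cell cannot be told apart.

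In cortex, Nr3c1 lay within a narrower range. Its normalised count was 1239, 1237 and 1396 in replicates 2, 3 and 4 at 24 h. It was 1243, 1310.3 and 1503 in replicates 1, 2 and 3 at 48 h, and 1575, 1242, 821 and 1190.1 in controls 1 to 4. Every exposed cortex library lay inside the range of the controls. The log2 change was 0.13 at 24 h (95% interval -0.31 to 0.57, limma adjusted p = 0.881) and 0.20 at 48 h (95% interval -0.24 to 0.63, limma adjusted p = 0.885). Both intervals stay well within a 2-fold change. Without the doubted libraries the 24 h value was -0.011 and the 48 h value 0.025, which it also was without cortex control 3 alone.

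Nr3c2, the mineralocorticoid receptor, varied more between libraries of a group, mostly through 1 high library in each of 2 groups. In hippocampus its normalised count was 1276, 367 and 463 in replicates 2, 3 and 4 at 24 h. It was 326, 429 and 487 in replicates 1, 2 and 3 at 48 h, against 263, 499, 499 and 382 in controls 1 to 4. Replicate 2 at 24 h, a library that lay between the tissues, was the only hippocampus library above 499. The log2 change at 24 h was 0.59 (95% interval -0.34 to 1.53, limma adjusted p = 0.851). It was 0.051 without that replicate and -0.083 without all doubted libraries. At 48 h the log2 change was 0.038 (95% interval -0.90 to 0.97, limma adjusted p = 0.988), and -0.096 without the doubted libraries.

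Cortex held the second high Nr3c2 library. The normalised count was 639, 332 and 646 in replicates 2, 3 and 4 at 24 h. It was 1197, 538 and 471 in replicates 1, 2 and 3 at 48 h, and 467, 568, 409 and 522 in controls 1 to 4. At 24 h the 3 libraries lay on both sides of the control range, with 2 above it and 1 below. At 48 h replicate 1 stood above it, and the other 2 lay inside. This replicate lay at 0.11 on the scale between the tissues, near the cortex end, and held 12244465 reads. The log2 change was 0.080 at 24 h (95% interval -0.67 to 0.83, limma adjusted p = 0.967) and 0.46 at 48 h (95% interval -0.29 to 1.21, limma adjusted p = 0.885). Without replicate 1 at 48 h the 48 h value was 0.044. Without the doubted libraries the values were 0.31 at 24 h and 0.38 at 48 h.

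The balance of the receptors was followed as the log2 ratio of Nr3c2 to Nr3c1 within each library, which no size factor can move. Its differences between groups are free of gene length, while its level is not. Its hippocampal mean was -1.53 ± 1.11 (SD, n = 3) at 24 h and -1.76 ± 0.12 (SD, n = 3) at 48 h, against -1.64 ± 0.23 (SD, n = 4) for controls. In cortex it averaged -1.32 ± 0.50 (SD, n = 3), -1.005 ± 0.85 (SD, n = 3) and -1.27 ± 0.33 (SD, n = 4) in these groups. The ratio was thus close to constant in hippocampus at 48 h and in control hippocampus, and widely spread at 24 h, where replicate 2 had -0.31 and replicate 3 had -2.49.

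Averaged over the 3 exposure groups, the log2 ratio was 0.45 lower in hippocampus than in cortex, a difference of -0.45 (exact permutation test within exposure groups, 28000 arrangements, two-sided p = 0.134, adjusted over the 10 ratio comparisons 0.667). Without hippocampus 24 h replicate 2 it was -0.65 with p = 0.00714, and without the 5 doubted libraries -0.69 with p = 0.0142, in the same exact permutation test, both unadjusted. Over the 20 fits that leave out 1 library it ran from -0.65 to -0.29, with unadjusted p in that test up to 0.335. The second lowest of these p was 0.0769, without cortex 48 h replicate 3. Between exposure groups of a tissue, the differences in log2 ratio ran from -0.24 to 0.32, with exact permutation p of 0.371 to 0.829. With 3 libraries against 4 the smallest p possible is 0.0286, and with 3 against 3 it is 0.1.

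**Figure D2:**
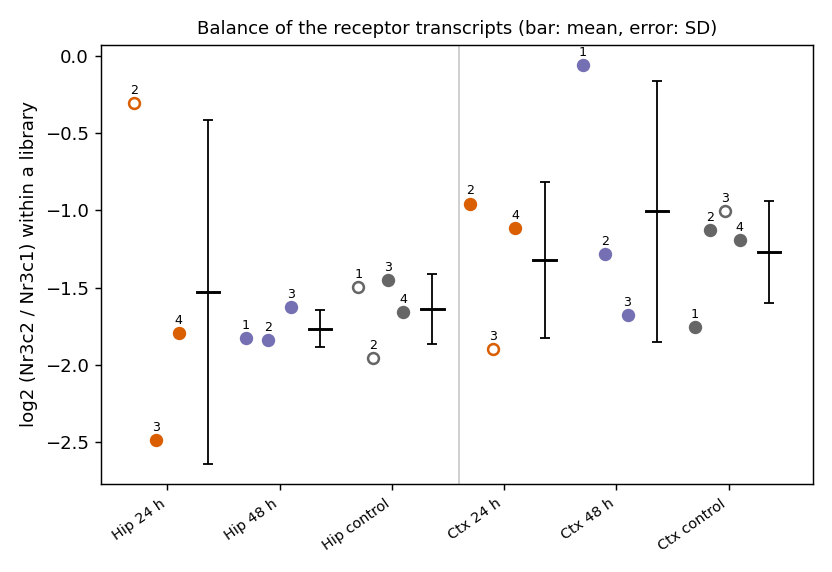
Log2 ratio of the Nr3c2 to the Nr3c1 normalised count (y axis) in each library, by tissue and group. Points carry the replicate number, open points are doubted libraries, and bars and error bars are the mean and SD. Hippocampus at 48 h spans -1.84 to -1.63, while hippocampus at 24 h spans -2.49 to -0.31.

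Sgk1, the receptor-responsive kinase, differed most between libraries, 7.27-fold between the lowest and the highest of the 20. In hippocampus its normalised count was 3637, 942 and 2110 in replicates 2, 3 and 4 at 24 h. It was 849, 847 and 3790.1 in replicates 1, 2 and 3 at 48 h, against 781, 983, 775 and 1684 in controls 1 to 4. The libraries did not spread evenly, since 6 lay between 775 and 983 and the other 4 lay between 1684 and 3790.1. The 4 high ones came from all 3 groups, with 2 at 24 h, 1 at 48 h and 1 control.

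Because high and low libraries occurred in each group, the hippocampal Sgk1 changes had wide intervals. The Sgk1 mean at 24 h was 2230 ± 1352 (SD, n = 3), against 1056 ± 430 (SD, n = 4) for control hippocampus. The log2 change was 0.95 (95% interval -0.39 to 2.29, limma adjusted p = 0.851). It was 0.49 without replicate 2 at 24 h and 0.30 without all doubted libraries. At 48 h it averaged 1829 ± 1699 (SD, n = 3), with a log2 change against controls of 0.48 (95% interval -0.86 to 1.82, limma adjusted p = 0.928). Without replicate 3 at 48 h that change was -0.24, and without the doubted libraries it was 0.29. The difference of 48 h minus 24 h was -0.47 (95% interval -1.90 to 0.97, limma adjusted p = 1), and -0.013 without the doubted libraries.

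In cortex, the change of Sgk1 at 24 h had the smallest unadjusted p of the 18 exposure tests. Its normalised count was 607, 1391 and 1112 in replicates 2, 3 and 4 at 24 h. It was 721, 531 and 936 in replicates 1, 2 and 3 at 48 h, and 735, 522, 539 and 832 in controls 1 to 4. At 24 h 2 of the 3 libraries exceeded every control and the third lay among the controls. The log2 change at 24 h was 0.60 (95% interval -0.07 to 1.28, SE 0.30, limma adjusted p = 0.641), and 9.23% of the 14783 genes tested changed by more. It was 0.35 without replicate 3 at 24 h and 0.27 without the doubted libraries. The exact permutation test of all 7 libraries gave p = 0.143. At 48 h the log2 change against controls was 0.14 (95% interval -0.54 to 0.82, limma adjusted p = 0.937), and against 24 h it was -0.46 (95% interval -1.19 to 0.26, limma adjusted p = 0.625). Without the doubted libraries these were 0.056 and -0.21. Cortex 24 h replicate 3, the highest of these libraries, lay toward hippocampus in its tissue position, at 0.26. Cortex control 3 lay farther toward hippocampus, at 0.41, and had 539. Replicate 4 at 24 h lay at -0.01 and had 1112. Whether Sgk1 follows tissue position was not tested.

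All 12 log2 changes against controls were above 0 as fitted, for 3 genes at 2 times in 2 tissues. Both times are set against the same control libraries of their tissue, and hippocampus control 1 was the lowest of its group for both receptors, so these signs are not independent. Without single libraries, 6 of the 12 kept their sign in every fit. These were Nr3c1 in cortex at 48 h and in hippocampus at 24 h, Nr3c2 in cortex at 48 h and in hippocampus at 24 h, and Sgk1 at 24 h in both tissues. Without the 5 doubted libraries the sign turned for Nr3c1 in cortex at 24 h (-0.011). It also turned for Nr3c2 in hippocampus at 24 h (-0.083) and 48 h (-0.096). The share of all genes with such signs is not given here. The median log2 change of all genes ran from -0.021 to 0.035 in these comparisons.

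**Figure D3:**
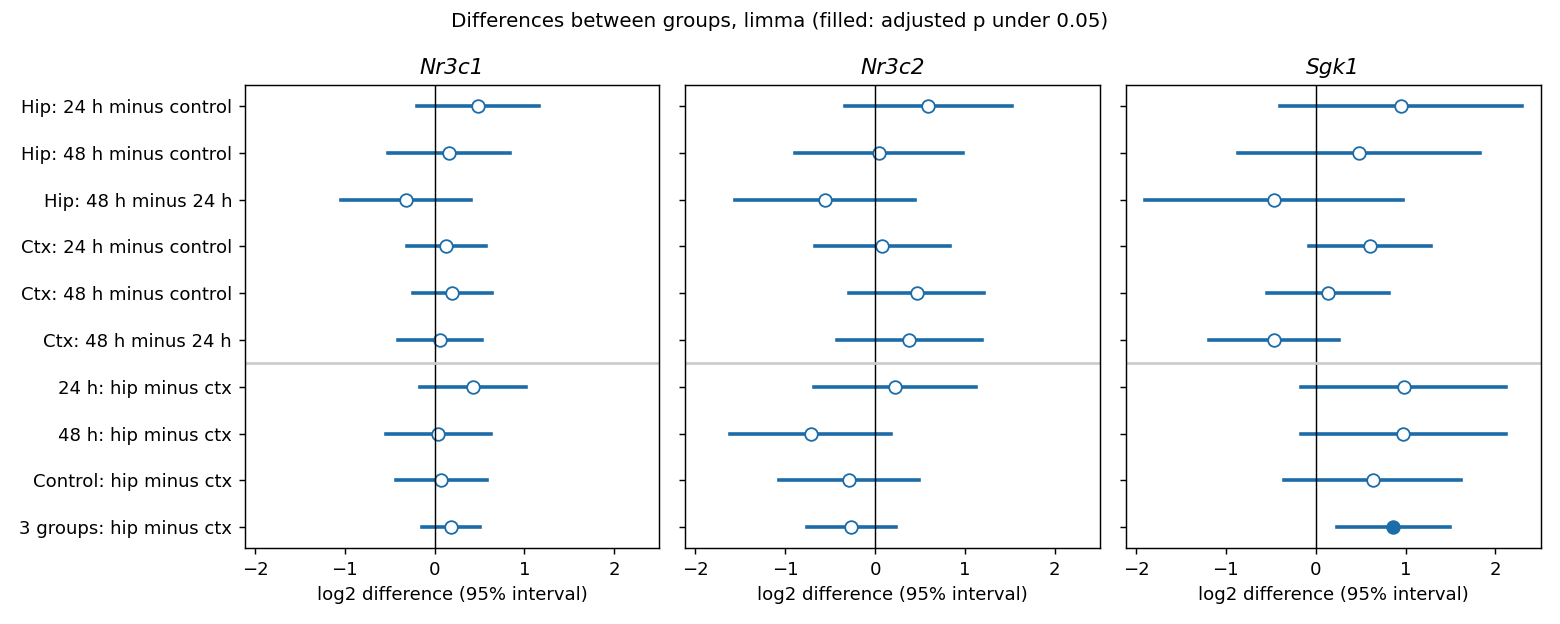
Log2 difference with its 95% interval (x axis) for each gene and comparison (rows), from limma. Filled points have an adjusted p under 0.05, and open points do not. The single filled point is Sgk1, hippocampus minus cortex over the 3 exposure groups, at 0.86.

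Between the tissues, Sgk1 was higher in hippocampus, and the receptors were not called. Averaged over the 3 exposure groups, the log2 difference of hippocampus minus cortex for Sgk1 was 0.86 (95% interval 0.23 to 1.49, SE 0.30, limma adjusted p = 0.0473), a 1.82-fold higher level. In this comparison 21.8% of 15017 genes were called, 10.6% as higher in hippocampus, so a call here is common among all genes, and 16% of genes differed by more than Sgk1. An exact permutation test within exposure groups gave p = 0.0126 (28000 arrangements, two-sided). Both tests treat the libraries as independent, although rats gave both tissues. All 10 hippocampus libraries lay above the cortex median of 728, 4 of them above every cortex library, and 6 of 10 cortex libraries lay below every hippocampus library.

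The Sgk1 call stood near the threshold. limma lost it without any one of 15 of the 20 libraries (adjusted p = 0.0505 to 0.106). It kept the call without cortex 24 h replicate 3, hippocampus 24 h replicate 3, hippocampus 48 h replicates 1 and 2 or hippocampus control 1 (adjusted p = 0.0179 to 0.0402). The log2 difference stayed between 0.62 and 1.04 in these 20 fits and was lowest without hippocampus 48 h replicate 3. Without the 5 doubted libraries it was 0.83 (limma adjusted p = 0.0701). The call was also lost with no filter on low counts (adjusted p = 0.0617) and with the replicate number as a block (adjusted p = 0.0568). edgeR gave 1.05 (adjusted p = 0.0185) and DESeq2 1.04 (adjusted p = 0.00486). The shares of all genes that edgeR and DESeq2 called are not given here.

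Within each exposure group the Sgk1 difference pointed the same way but was not called. It was 0.98 at 24 h (limma adjusted p = 0.418), 0.97 at 48 h (limma adjusted p = 0.325) and 0.63 in controls (limma adjusted p = 0.451), on the log2 scale. Of all genes, 1.8% were called between the tissues at 24 h, 5.29% at 48 h and 2.9% in controls, and 0 of the 3 members in each.

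Nr3c1 and Nr3c2 were not called between the tissues in any exposure group. Over the 3 exposure groups, Nr3c1 had a hippocampal mean of 1468 ± 380 (SD, n = 10), against 1276 ± 204 (SD, n = 10) for cortex, a log2 difference of 0.18 (95% interval -0.14 to 0.51, limma adjusted p = 0.44). At 24 h all 3 hippocampus libraries lay above all 3 cortex libraries for Nr3c1, with a log2 difference of 0.43 (95% interval -0.16 to 1.01, limma adjusted p = 0.516, exact permutation p = 0.1). Groups without overlap were common in that comparison, at 29.4% of the genes tested.

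Nr3c2, for which hippocampus is known as a main site, was not higher there. Its hippocampal mean was 499 ± 284 (SD, n = 10), against 579 ± 238 (SD, n = 10) for cortex. The log2 difference of hippocampus minus cortex was -0.26 (95% interval -0.76 to 0.23, limma adjusted p = 0.468), and 8 of 10 cortex libraries lay above the hippocampus median of 446. Without the 5 doubted libraries the log2 difference was -0.53 (limma adjusted p = 0.0329). With all 20 libraries 21.8% of genes were called in this comparison, and the share in the smaller fit is not given here. Within single groups it was 0.22 at 24 h, -0.72 at 48 h and -0.29 in controls, with limma adjusted p of 0.886, 0.363 and 0.658. The 24 h value was -0.64 without the doubted libraries.

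The response to exposure was compared between the tissues as an interaction. For the 24 h response, hippocampus minus cortex was 0.35 for Nr3c1, 0.51 for Nr3c2 and 0.35 for Sgk1 on the log2 scale (limma adjusted p = 0.857, 0.857 and 0.91). For the 48 h response it was -0.034, -0.42 and 0.34 (limma adjusted p = 0.998 for each). None was called, nor was any gene of the 15017 tested (0%). The 95% intervals for Sgk1 reached from -1.16 to 1.86 at 24 h and from -1.17 to 1.85 at 48 h, so they do not exclude a difference in response of more than 2-fold. Without the doubted libraries the 24 h values were 0.51, -0.39 and 0.038 for Nr3c1, Nr3c2 and Sgk1, and the 48 h values 0.089, -0.47 and 0.23. The sign for Nr3c1 at 48 h was positive with TMM (0.017) and with quantile normalization (0.070).

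The 6 groups were put in order, and the gaps between neighbours in that order were set against the spread. Such gaps are small in any ordered list, so they say nothing of groups farther apart. For Sgk1 the mean log2 level ran from hippocampus at 24 h, at 48 h and in controls down through cortex at 24 h, at 48 h and in controls. No neighbours in that order differed by more than the larger SD of the 2 groups. The ends of the order lay farther apart, at 10.92 ± 0.98 (SD, n = 3) in hippocampus at 24 h and 9.33 ± 0.33 (SD, n = 4) in control cortex. For Nr3c2 the order was cortex at 48 h, hippocampus at 24 h, cortex at 24 h, control cortex, hippocampus at 48 h and control hippocampus, again with no gap beyond the spread. For Nr3c1 only the top gap, hippocampus at 24 h over hippocampus at 48 h (0.32 on the log2 scale against an SD of 0.23), exceeded it. Below these came cortex at 48 h, cortex at 24 h, control hippocampus and control cortex.

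The members had 61 to 3390 reads per library, a counting error of 1.72% to 12.8%. Their pooled SD within groups on the log2 scale was 0.41 in hippocampus and 0.27 in cortex for Nr3c1, 0.61 and 0.50 for Nr3c2, and 0.91 and 0.45 for Sgk1. The median over all genes tested was 0.53 in hippocampus and 0.32 in cortex. Nr3c1 was thus steadier than the median gene in both tissues and Sgk1 less steady, with 21.9% of genes in hippocampus and 31.2% in cortex spreading more than Sgk1. The reference annotation also lists a pseudogene, Sgk1-ps1. The sources used here do not say how shared reads were counted, so the Sgk1 level is uncertain to that extent.

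**Figure D4:**
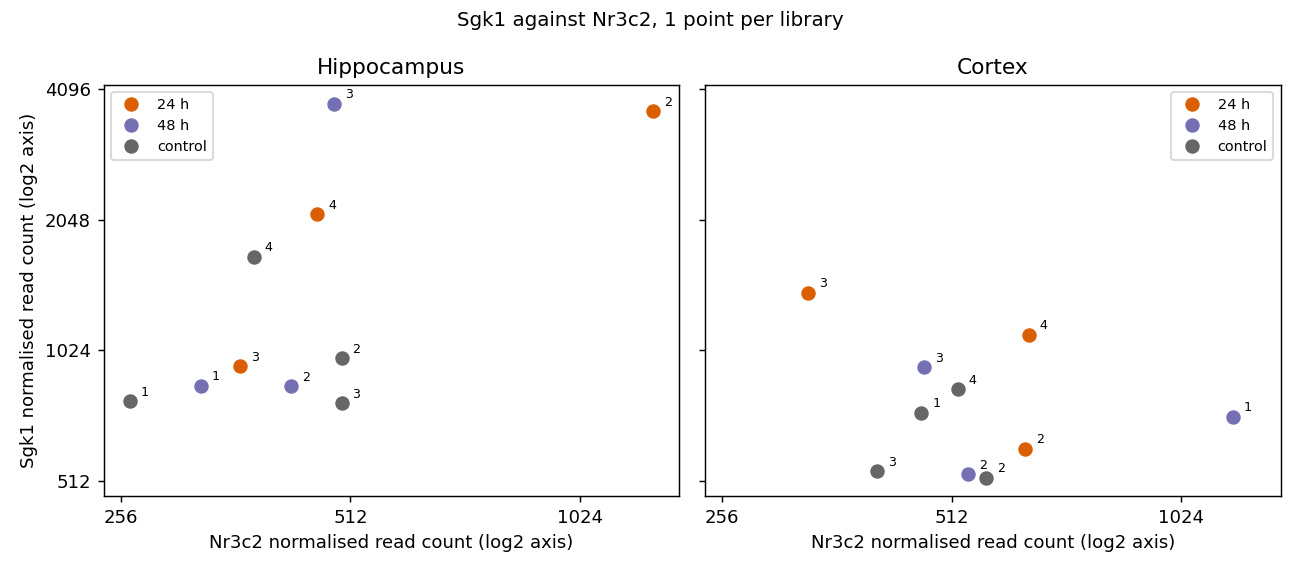
Sgk1 against Nr3c2 normalised read count (both log2 axes), 1 point per library with its replicate number, for hippocampus (left) and cortex (right). Hippocampus 24 h replicate 2 is high for both genes, while 48 h replicate 3 is high for Sgk1 alone, with 487 for Nr3c2.

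Across the 10 libraries of a tissue, the members were compared in pairs, 6 relations in all. The closest was Nr3c2 with Sgk1 in hippocampus, with Pearson r = 0.65 (permutation p = 0.0307, adjusted 0.184) and Spearman rho = 0.43 (permutation p = 0.217, adjusted 0.56). Without the 2 libraries farthest in Nr3c2, hippocampus 24 h replicate 2 and control 1, r was 0.30, so the relation rests on them. In cortex the same pair had r = -0.25 (permutation p = 0.498, adjusted 0.631) and rho = -0.24 (permutation p = 0.513, adjusted 0.616), and r = 0.20 without the 2 farthest. Nr3c1 with Sgk1 had r = 0.24 (permutation p = 0.526, adjusted 0.631) and rho = 0.38 (permutation p = 0.28, adjusted 0.56) in hippocampus. In cortex it had r = 0.37 (permutation p = 0.304, adjusted 0.608) and rho = 0.16 (permutation p = 0.655, adjusted 0.655). Without the 2 farthest libraries these r were 0.18 and 0.25.

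The receptors themselves had r = 0.46 (permutation p = 0.165, adjusted 0.496) and rho = 0.49 (permutation p = 0.155, adjusted 0.56) in hippocampus. In cortex they had r = 0.14 (permutation p = 0.638, adjusted 0.638) and rho = 0.24 (permutation p = 0.509, adjusted 0.616). Without the 2 farthest libraries r was 0.44 in hippocampus and -0.11 in cortex. No relation passed after adjustment.

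Among 15017 genes, the ID most like each member over the 20 libraries was found by Pearson r of the log2 values, as a description of libraries that share rats, tissue and scaling. For Nr3c1 it was ENSRNOG00000054902 (r = 0.90, rho = 0.86), and r was 0.72 over the 15 libraries that were not doubted. For Nr3c2 it was ENSRNOG00000004258 (r = 0.90, rho = 0.73, and 0.83 over the 15). This ID was picked for its likeness to Nr3c2, so its being highest in the same 2 libraries follows largely from the choice. Its normalised counts were 270.0 in cortex 48 h replicate 1, 254 in hippocampus 24 h replicate 2, and 118 to 174 in the others. For Sgk1 it was ENSRNOG00000058186 (r = 0.84, rho = 0.74, and 0.84 over the 15). Picked in the same way, it was highest in hippocampus 24 h replicates 2 and 4, at 753 and 709. Sgk1 was highest in the first of these and in hippocampus 48 h replicate 3. Over 0.8 in r were 60 genes for Nr3c1, 8 for Nr3c2 and 2 for Sgk1.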

How the data were processed

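RNA-seq libraries of rat cortex and hippocampus were used. Per the submitters' processing notes, the tools were fastp 0.20.0, HISAT2 2.1.0 and featureCounts 2.0.1. For build, annotation, strand setting and filters, the sources used here give nothing. What the authors deposited was a signal per gene: reads scaled by a size factor for each library. All values (100%) were within 1e-06 of a whole multiple of the smallest value in its column, so whole reads were recovered in all 21 columns.

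The main test was limma 3.58.1 (R 4.3.3, intensity trend, two-sided) on log2(value + 1). P-values were Benjamini-Hochberg adjusted over all genes with a mean of at least 10, with a threshold of 0.05. The 10 libraries of a tissue shared 1 fit, and tissue and interaction contrasts used all 20 libraries. As alternatives, edgeR 4.0.16 and DESeq2 1.42.0 took the recovered reads. The other alternatives were the pseudocount, filter, scaling, libraries in the fit, a replicate block and leaving out libraries. Permutation tests over libraries were exact, and those of correlations drew 100000 resamples at 10 libraries. Apart from the replicate block, tests between the tissues treat libraries as independent, although rats gave both tissues.

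The members, lists, doubted libraries and tests were chosen with earlier results of these data known. The named genes were the 3 members and, for each, the ID with the highest Pearson r over the 20 libraries. Of 47357 genes in the reference table (GRCr8), 0 carry an Ensembl ID. The list of 46 other pathway symbols, and the cell type markers, could therefore not be applied. In simulated counts for cortex at 24 h against control (14711 genes), limma called 23.9% of 2-fold and 78.5% of 4-fold changes.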

Additional observations from a re-analysis of the deposited data

How the results depend on the processing

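Of 957 alternative values for 52 results, 886 kept their direction and side of the threshold and 47 reversed. Part of the 886 could not reverse, so their number does not measure how firm the results are. In limma, leaving out a library outside a comparison, dropping the filter or fitting all 20 libraries leaves the log2 value unchanged. Of the limma values, 18 lost a call and 1 gained one. Of the ratios and correlations, judged here by unadjusted permutation p, 2 moved above 0.05 and 3 below it. The causes were not tested. The Sgk1 difference between hippocampus and cortex over the 3 exposure groups lost its call with no filter (0.86, limma adjusted p = 0.0617). The same held with the replicate block (0.86, limma adjusted p = 0.0568) and without the 5 doubted libraries (0.83, limma adjusted p = 0.0701). This difference ranged from 0.62 to 1.04 without single libraries. Without the doubted libraries the Nr3c2 difference was -0.53 and passed, in a comparison where 21.8% of genes were called with all 20 libraries.

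The replicate numbers were not taken as pairs. Across tissues 3 of 10 same-numbered pairs had correlated deviations over 0.1 (-0.29 to 0.14), 6 of 20 libraries correlated best with their own number, and within a tissue 8 of 16 pairs were over 0.1. With the replicate block the Nr3c2 change in hippocampus at 48 h was -0.0098, and that and the Sgk1 tissue call were all that the block turned or lost.

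Without the 5 doubted libraries these log2 values reversed. Nr3c1 was -0.011 in cortex at 24 h, -0.046 between the tissues in controls and 0.089 for the 48 h interaction. Nr3c2 was -0.083 in hippocampus at 24 h, -0.096 at 48 h, -0.64 between the tissues at 24 h and -0.39 for the 24 h interaction. The Nr3c1 interaction at 48 h was also 0.017 with TMM and 0.070 with quantile normalization. The log2 ratio of the receptors was 0.32 in cortex at 24 h, -0.58 in hippocampus at 24 h and 0.37 for hippocampus 48 h minus 24 h, and between the tissues it was -0.69 (unadjusted exact permutation p = 0.0142). The correlation of Nr3c2 with Sgk1 in hippocampus was 0.58 on deviations from group means and 0.41 without doubted libraries, both with an unadjusted p above 0.05, and that of the receptors in cortex was -0.46.

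Leaving out single libraries turned the sign of these uncalled log2 values. Nr3c1 ran from -0.040 to 0.27 in cortex at 24 h, -0.014 to 0.12 for cortex 48 h minus 24 h and -0.084 to 0.38 in hippocampus at 48 h. Between the tissues it ran from -0.031 to 0.17 at 48 h and -0.14 to 0.32 in controls, and its 48 h interaction from -0.28 to 0.18. Nr3c2 ran from -0.082 to 0.40 in cortex at 24 h, -0.035 to 0.64 for cortex 48 h minus 24 h and -0.16 to 0.20 in hippocampus at 48 h. Between the tissues at 24 h it ran from -0.32 to 0.58, and its 24 h interaction from -0.029 to 0.87. Sgk1 ran from -0.058 to 0.35 in cortex at 48 h and -0.24 to 0.84 in hippocampus at 48 h, and its interactions from -0.11 to 0.87 at 24 h and -0.38 to 0.70 at 48 h.

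The log2 ratio ran from -0.24 to 0.24 in cortex at 24 h, -0.21 to 0.60 in cortex at 48 h and -0.16 to 0.65 for cortex 48 h minus 24 h. In hippocampus it ran from -0.50 to 0.59 at 24 h and -0.72 to 0.37 for 48 h minus 24 h. Between the tissues it ran from -0.82 to 0.27 at 24 h, from -0.53 to -0.27 in controls and -0.65 to -0.29 over the 3 groups. Over the 3 groups the unadjusted exact permutation p ran from 0.00714, without hippocampus 24 h replicate 2, to 0.335. In controls it ran from 0.0286, without cortex control 1, to 0.257, and 0.0286 is the smallest that 4 against 3 can give.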
